A study of Mus musculus with 16 samples.

Results

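The mitochondrial carriers of the SLC25 family were described in primary mouse hepatocytes that were left untreated or were exposed to lipid, to itaconate or to both. They were chosen by name, as every gene with a symbol of the form *Slc25a* and a number, leaving out *Slc25a1*, *Slc25a10*, *Slc25a11*, *Slc25a15* and *Slc25a20*. No measured value entered this rule, although it was set with earlier results of these data known. The rule gave 42 of the 55450 genes in the table, all of them protein-coding and spread over 18 chromosomes. Hepatocytes of Wildtype genotype were kept overnight in DMEM with 5% FBS and an insulin, transferrin and selenium supplement in every group, and bulk RNA was sequenced from 4 libraries per treatment (16 in all). The untreated group received nothing further, the itaconate group received 10 mM sodium itaconate, the lipid group received a chemically defined mixture of arachidonic, linoleic, myristic, oleic, palmitic and stearic acids with cholesterol at a 10-fold dilution, and the lipid + itaconate group received both. Libraries of a treatment carry the letters A, B, C and D, and nothing in the sources used here says whether letters are separate animals or separate cultures. The p-values therefore measure the spread of these libraries that remains after treatment and letter are fitted, which may be technical.

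Most SLC25 proteins sit in the inner membrane of mitochondria. There each exchanges or imports a small set of solutes that the membrane would otherwise hold back, such as nucleotides, phosphate, amino acids, coenzymes and iron. Not all members described here do so, and *Slc25a46* is a member of the outer membrane. They are made in the cytosol and inserted by the translocases of the outer and inner membranes. In hepatocytes they tie mitochondrial ATP production, ureagenesis, gluconeogenesis, one-carbon metabolism and heme synthesis to the rest of the cell.

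Total expected counts ran from 22346049 to 35512004 per library (median 27719372). All 8 hepatocyte markers examined (*Alb*, *Apoa1*, *Ttr*, *Serpina1a*, *Cps1*, *Hnf4a*, *Asgr1* and *Cyp2e1*) passed the filter on low values, with a summed level of 39149 to 53972 CPM (counts scaled to a common library size) in untreated and 34520 to 45748 CPM in lipid-treated libraries, so the markers of the labelled cell type were present. Of the markers of other cells, those of stellate cells (0 of 6 passing, at most 0.324 CPM summed) and muscle (0 of 4) were near 0, and endothelial markers summed to 10.3 to 20.8 CPM over all groups. With lipid, the summed level of 6 macrophage markers moved from 157 to 259 CPM in untreated libraries to 217 to 312 CPM, nearly all of it *Cd68* (means of 196 and 262 CPM), while *Adgre1* went from a mean of 2.18 to 1.20 CPM. Of the 5 tested macrophage markers, 1 was called higher and 1 lower. With itaconate in both arms, lipid raised 1 and lowered 4 of these 5, beside 23.5% of all genes higher and 23.5% lower. Of the 8 hepatocyte markers it raised 1 and lowered 4 there, against 1 and 2 without itaconate. The summed level of 5 cholangiocyte markers moved from 599 to 1169 CPM in untreated libraries to 335 to 608 CPM in lipid-treated ones. Most of it was from *Spp1*, with *Krt7* and *Krt19* near 0. The part of these markers in the carrier results was not tested, and in bulk RNA fewer cells of a type and less RNA per cell cannot be told apart. Replicate B of the lipid + itaconate group stood apart from its group, with a chi-square per gene of 106 to 147 against the others, while every other pair of libraries within a group was at 64.5 or less. Counts of carriers and of gene lists in comparisons with that group are therefore also given without replicate B.

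Levels of the carriers spanned more than 3 orders of magnitude per kilobase of exon. The length was that of all annotated exons of a gene merged, which need not match the transcript made. The order below depends on this length, and the SD leaves out any error in it. Before the division, untreated means were closer, at 353 CPM for *Slc25a5*, 339 for *Slc25a37*, 328 for *Slc25a39* and 311 for *Slc25a3*. *Slc25a5*, the ADP/ATP carrier that returns ATP to the cytosol, was highest in untreated hepatocytes at 214.6 ± 2.80 CPM per kb (SD, n = 4). The glutathione importer *Slc25a39* was next at 119.1 ± 4.95 CPM per kb. The mitoferrin *Slc25a37*, which brings iron to heme and iron-sulfur synthesis, and the phosphate and copper carrier *Slc25a3* followed at 56.2 ± 5.60 and 56.1 ± 4.65 CPM per kb, and these did not differ beyond their spread. The pyrimidine nucleotide carrier *Slc25a33* was at 27.9 ± 2.99 CPM per kb, followed by *Slc25a30* at 21.3 ± 1.01, *Slc25a44* at 18.1 ± 1.87 and the liver-enriched *Slc25a47* at 17.9 ± 5.55 CPM per kb, of which *Slc25a44* and *Slc25a47* did not differ beyond their spread. For ADP/ATP and for pyrimidine nucleotides, the second carrier was far less abundant than the first. *Slc25a4*, the ADP/ATP carrier typical of muscle, was at 0.505 ± 0.0742 CPM per kb, and *Slc25a36*, the other pyrimidine nucleotide carrier, was at 0.0976 ± 0.00933 CPM per kb. The ATP-Mg/phosphate carriers *Slc25a23*, *Slc25a25* and *Slc25a24* lay closer together, at 6.81 ± 1.15, 7.30 ± 0.752 and 3.59 ± 0.721 CPM per kb.

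**Figure D1:**
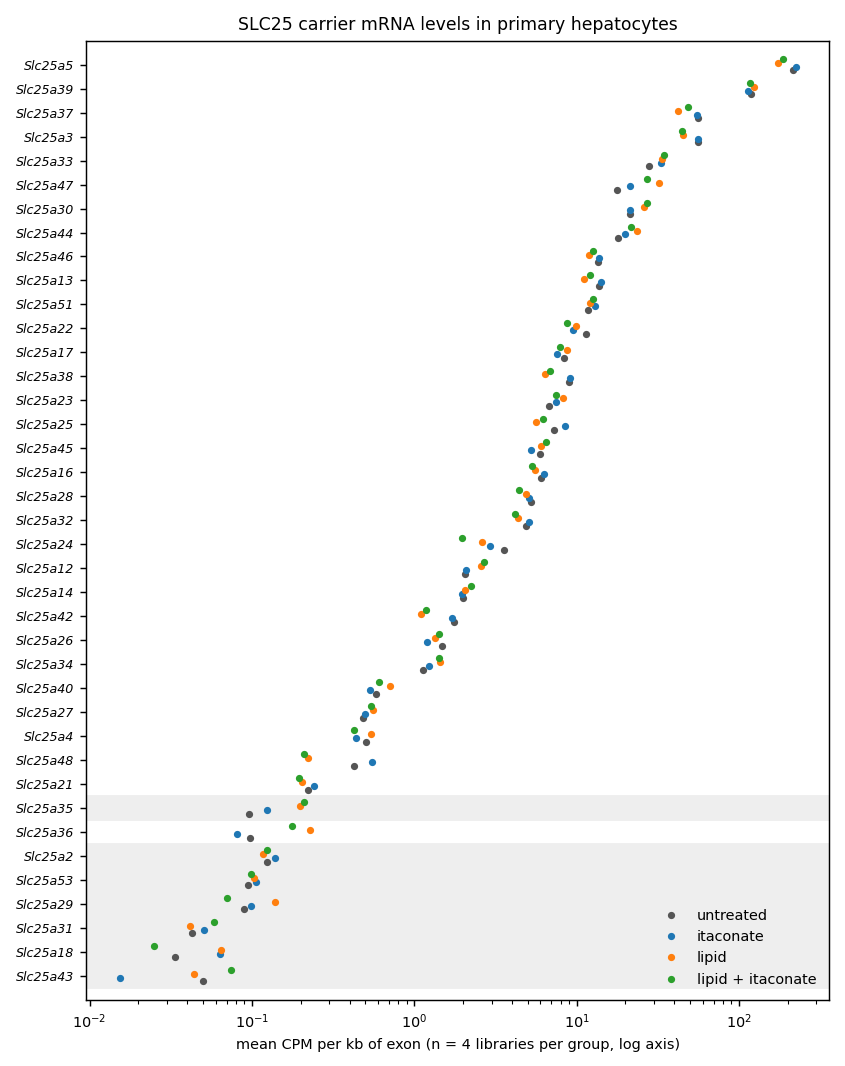
Mean level of carriers in CPM per kilobase of exon (log axis) in the 4 treatment groups (n = 4 libraries each), with grey bands for members under the filter on low values. *Slc25a5*, *Slc25a39*, *Slc25a37* and *Slc25a3* lie above 40 CPM per kb in every group, and *Slc25a41* and *Slc25a54*, with no count in any library, are not drawn.

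Of the 42 carriers, 33 averaged 1 CPM or more across all libraries and were tested among 11675 genes. The 9 below it were *Slc25a2*, *Slc25a18*, *Slc25a29*, *Slc25a31*, *Slc25a35*, *Slc25a41*, *Slc25a43*, *Slc25a53* and *Slc25a54*, with means of 0 to 0.804 CPM. *Slc25a41* and *Slc25a54* had no count in any library, which allows a level of up to 0.0845 to 0.134 CPM depending on the library (3 counts of its total, counting error only). *Slc25a36* and *Slc25a48* passed by little, with 19 to 77 and 11 to 88 counts per library. *Slc25a36* passed through its level in the groups with lipid and *Slc25a48* through its level in the groups without it, so these members entered the test through the groups in which they were high.

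The summed level of all 42 carriers was 2147 to 2208 CPM in untreated, 2178 to 2224 CPM in itaconate-treated, 2012 to 2045 CPM in lipid-treated and 2026 to 2089 CPM in lipid + itaconate-treated libraries. The groups with lipid lay below the groups without it with no overlap. *Slc25a5*, *Slc25a39*, *Slc25a37* and *Slc25a3* together made up 60.0 to 62.4% of the sum in untreated and 55.1 to 56.6% in lipid-treated libraries.

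Lipid raised 7 and lowered 11 of the 33 carriers tested against untreated hepatocytes (adjusted p under 0.05, edgeR's quasi-likelihood test). These 18 are 54.5% of the carriers, beside 47.5% of all genes tested, with 23.8% of all genes higher and 23.7% lower. The median log2 fold change was −0.10 over the carriers and 0.00 over all genes tested, so the carriers' share was near that of the background. The carriers that rose were *Slc25a36*, *Slc25a47*, *Slc25a44*, *Slc25a12*, *Slc25a30*, *Slc25a23* and *Slc25a33*. Those that fell were *Slc25a48*, *Slc25a42*, *Slc25a38*, *Slc25a24*, *Slc25a37*, *Slc25a25*, *Slc25a3*, *Slc25a13*, *Slc25a5*, *Slc25a22* and *Slc25a46*. *Slc25a36* and *Slc25a48* are in these counts, although they passed the filter through the groups in which they were high. By substrate, both pyrimidine nucleotide carriers rose, *Slc25a36* with this limit. The single phosphate carrier and 1 of 2 ADP/ATP carriers fell, 1 of 2 mitoferrins fell, and neither glutathione carrier passed the test. The 3 tested ATP-Mg/phosphate carriers split into 1 higher and 2 lower, as did the 3 tested carriers of aspartate and glutamate, and 1 of 7 carriers of coenzymes and vitamins fell.

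**Figure D2:**
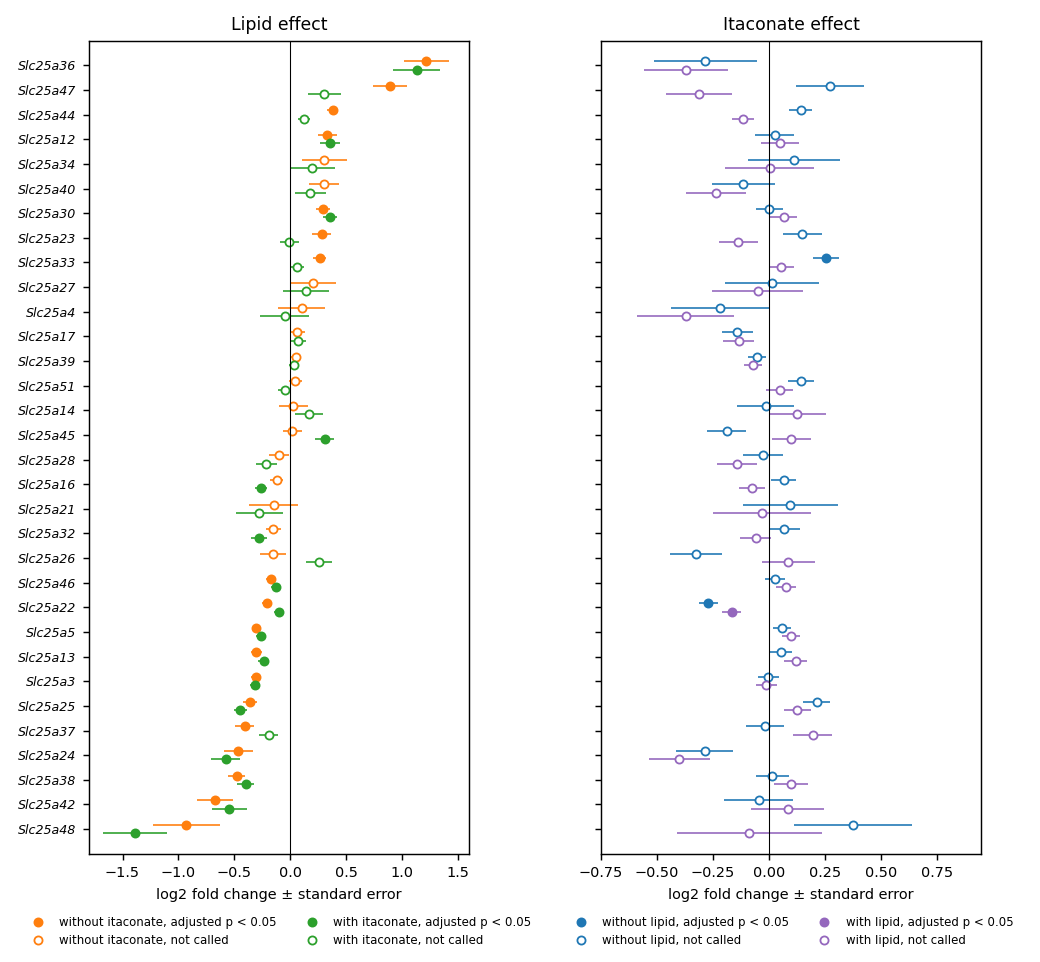
Fitted log2 fold change ± standard error of tested carriers for lipid (left, without and with itaconate) and for itaconate (right, without and with lipid), with filled points at an adjusted p under 0.05. Lipid effects run from −1.39 (*Slc25a48*) to 1.22 (*Slc25a36*), and these carriers passed the filter through the groups in which they were high. The others run from −0.67 (*Slc25a42*) to 0.89 (*Slc25a47*). Most filled points keep their side of 0 with itaconate present, while 3 itaconate effects are filled, those of *Slc25a22* and *Slc25a33*.

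The pyrimidine nucleotide carriers supply mitochondria with the UTP, CTP and dTTP precursors of mitochondrial RNA and DNA. *Slc25a36* (GRCm38, chr9:97074961-97111157, minus strand) was at 0.889, 0.876, 0.912 and 1.07 CPM in untreated and at 1.95, 1.95, 2.43 and 2.43 CPM in lipid-treated libraries (replicates A, B, C and D, in this order throughout). Every lipid-treated library was higher than every untreated one, and the fitted rise was 2.32-fold (log2 1.22 ± 0.20 SE, adjusted p = 1.77e-04). With itaconate in both arms it was at 0.797, 0.775, 0.978 and 0.576 CPM without and 2.19, 1.38, 1.62 and 1.57 CPM with lipid, again without overlap (log2 1.13 ± 0.21, adjusted p = 4.90e-04). These levels rest on 19 to 77 counts per library, and *Slc25a36* passed the filter through the groups with lipid. *Slc25a33* (chr4:149744036-149774277, minus strand), the more abundant paralog, was at 58.1, 55.1, 52.8 and 44.9 CPM in untreated and 68.4, 66.2, 61.7 and 56.4 CPM in lipid-treated libraries. It was higher with lipid in each of the 4 letters although the groups overlapped (log2 0.26 ± 0.06, adjusted p = 0.00159).

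The sequence before the start of transcription was searched for 7 short motifs of factors known for mitochondrial, sterol, stress and lipid-responsive genes, in the 250 bases upstream of each start in RefSeq's annotation of GRCm38.p6, on both strands. Windows were found for 31 of the 42 carriers. The E-box CACGTG, read by MYC and the MiT/TFE factors, was in the windows of 5 carriers (*Slc25a13*, *Slc25a14*, *Slc25a31*, *Slc25a33* and *Slc25a36*) beside 6.86% of 27025 genes with a window (6.02% of 32851 windows). The cAMP response element TGACGTCA was in those of *Slc25a36* and *Slc25a25*, beside 1.77% of genes (1.55% of windows). Both motifs contain CpG, and the median number of CpG was 11.5 in the carriers' windows against 6.0 in all windows. No carrier's window held the PPAR/RXR repeat, the ERR element TCAAGGTCA, the NRF1 element, the ATF4 element TGATGCAAT or the sterol element TCACCCCAC, which were in 0.0335%, 0.387%, 0.782%, 0.167% and 0.496% of all windows. A match is a description of letters and not of a bound factor, and carriers that rose and carriers that fell with lipid both held one. The windows of the 3 carriers with a match before any GENCODE exon and a call with lipid are shown, 5′ to 3′ on the gene's strand, with matches in capitals. The *Slc25a36* window is chr9:97111158-97111291 (minus strand), that of *Slc25a13* is chr6:6217174-6217423 (minus strand), and that of *Slc25a25* is chr2:32424067-32424316 (minus strand), which precedes 1 of its 3 annotated starts.
Slc25a36: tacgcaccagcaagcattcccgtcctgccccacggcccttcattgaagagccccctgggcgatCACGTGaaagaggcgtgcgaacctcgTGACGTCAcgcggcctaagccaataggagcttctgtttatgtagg
Slc25a13: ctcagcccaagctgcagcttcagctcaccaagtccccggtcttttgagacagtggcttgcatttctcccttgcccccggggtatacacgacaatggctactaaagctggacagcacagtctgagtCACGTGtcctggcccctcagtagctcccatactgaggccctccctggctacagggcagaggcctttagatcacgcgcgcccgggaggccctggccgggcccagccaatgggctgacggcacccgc
Slc25a25: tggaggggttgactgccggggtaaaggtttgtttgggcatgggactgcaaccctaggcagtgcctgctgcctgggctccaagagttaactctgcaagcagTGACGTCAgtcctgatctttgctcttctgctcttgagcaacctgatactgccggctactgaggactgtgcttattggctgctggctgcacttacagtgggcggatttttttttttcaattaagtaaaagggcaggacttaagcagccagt
In the *Slc25a36* window the E-box and the cAMP response element lie close together, starting 187 and 161 bases before the RefSeq start. The *Slc25a36* gene rose with lipid, while *Slc25a13* and *Slc25a25* fell.

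*Slc25a47* (chr12:108836046-108856815), a carrier found mainly in hepatocytes whose substrate is not settled, had the largest rise among well-measured members. It was at 77.7, 48.4, 46.2 and 40.96 CPM in untreated and 113.6, 85.6, 94.95 and 88.9 CPM in lipid-treated libraries. The groups did not overlap (1.85-fold, log2 0.89 ± 0.15, adjusted p = 1.89e-04), and replicate A was highest in both. With itaconate in both arms the levels were 85.0, 64.1, 54.9 and 51.4 CPM without and 111.6, 105.3, 45.0 and 61.0 CPM with lipid. There, replicate C was lower with lipid while the other letters were higher, and the difference did not pass the test (log2 0.30 ± 0.15, adjusted p = 0.105). It rested on replicate C, without which it was called (log2 0.49 ± 0.11, adjusted p = 0.00190), and without replicate B it was log2 0.10 ± 0.12 (adjusted p = 0.525). It was also called with no filter. The lipid + itaconate libraries C and D lay at 45.0 and 61.0 CPM, below every lipid-treated library. Libraries A and B, at 111.6 and 105.3 CPM, lay inside the lipid-treated range. The fitted difference between lipid + itaconate and lipid was log2 −0.31 and was not called, except in 1 of 22 alternatives, that with no filter.

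*Slc25a44*, which carries branched-chain amino acids into mitochondria, was at 58.2, 63.6, 63.5 and 74.1 CPM in untreated and 78.35, 80.5, 83.5 and 94.8 CPM in lipid-treated libraries. All lipid-treated libraries were higher than all untreated ones (log2 0.38 ± 0.05, adjusted p = 2.35e-05). With itaconate in both arms it was at 62.1, 73.8, 73.4 and 76.9 CPM without and 76.5, 78.2, 76.5 and 79.1 CPM with lipid, higher in all 4 letters and not called (log2 0.12 ± 0.05, adjusted p = 0.0571), except without lipid + itaconate replicate D (log2 0.17, adjusted p = 0.0190).

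The aspartate/glutamate carriers of the malate-aspartate shuttle moved in opposite directions. *Slc25a12*, the form typical of brain and muscle, was at 14.0, 13.8, 15.8 and 16.6 CPM in untreated and 18.3, 17.4, 20.2 and 20.0 CPM in lipid-treated libraries, without overlap (log2 0.33 ± 0.09, adjusted p = 0.00559). *Slc25a13*, citrin, the form that hepatocytes use for ureagenesis, was at 49.5 to 53.4 CPM in untreated and 40.2 to 44.9 CPM in lipid-treated libraries, also without overlap (log2 −0.30 ± 0.05, adjusted p = 1.71e-04). Per kilobase, *Slc25a13* was the more abundant in both groups, at 13.7 ± 0.466 against 2.05 ± 0.184 CPM per kb in untreated and 11.1 ± 0.528 against 2.58 ± 0.183 CPM per kb in lipid-treated hepatocytes. Both differences were called with itaconate present too, at log2 0.35 ± 0.09 for *Slc25a12* (adjusted p = 0.00354) and log2 −0.24 ± 0.05 for *Slc25a13* (adjusted p = 0.00130). However, *Slc25a12* then rose in only 3 of 4 letters, from 15.0, 15.3, 15.2 and 15.7 CPM to 19.3, 15.0, 24.3 and 20.2 CPM.

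*Slc25a30*, which is related to the uncoupling proteins, was at 94.5, 97.0, 94.4 and 104.2 CPM in untreated and 117.5, 133.0, 114.7 and 113.7 CPM in lipid-treated libraries (log2 0.29 ± 0.06, adjusted p = 0.00111). With itaconate it was at 97.0, 106.0, 92.3 and 95.8 CPM without and 125.4, 122.6, 137.7 and 114.6 CPM with lipid (log2 0.36 ± 0.06, adjusted p = 2.44e-04). Neither pair of groups overlapped.

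**Figure D3:**
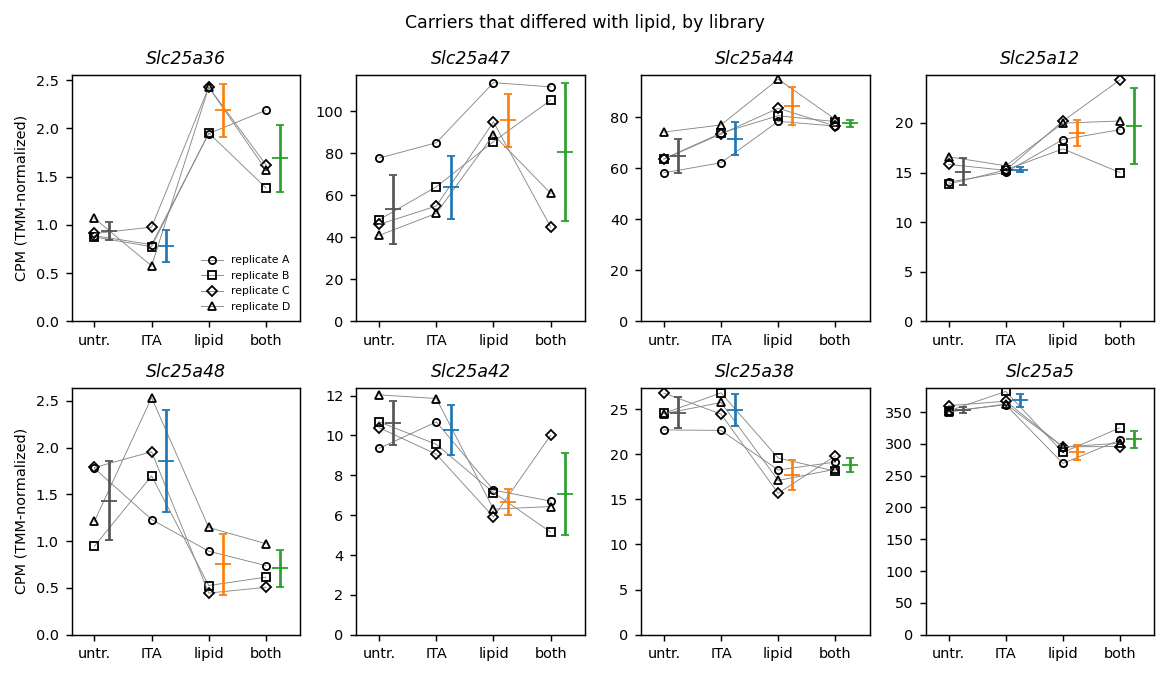
CPM by library (points, lines join a replicate letter) with the group mean ± SD (n = 4) for 4 carriers that rose and 4 that fell with lipid, in untreated (untr.), itaconate (ITA), lipid, and lipid + itaconate (both) hepatocytes. *Slc25a36*, *Slc25a47*, *Slc25a44* and *Slc25a12* are higher in every lipid-treated than in every untreated library, and *Slc25a42*, *Slc25a38* and *Slc25a5* lower, while *Slc25a48* overlaps.

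ATP-Mg/phosphate carriers, which set the adenine nucleotide content of mitochondria and respond to cytosolic calcium, did not move together. *Slc25a23* was at 43.2, 29.1, 33.6 and 38.3 CPM in untreated and 57.3, 40.2, 36.7 and 40.7 CPM in lipid-treated libraries, higher in all 4 letters but with overlap (log2 0.28 ± 0.09, adjusted p = 0.0148). This call was lost without untreated replicate B (adjusted p = 0.0562), lipid replicate A (0.0820) or lipid replicate B (0.0575), and without the letter in the model (0.122). With itaconate in both arms *Slc25a23* was at 43.6, 31.9, 40.04 and 43.7 CPM without lipid and at 40.2, 36.1, 40.5 and 40.9 CPM with it, which is inside the range without lipid.

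*Slc25a24* was at 11.1, 11.1, 11.1 and 16.0 CPM in untreated and 8.27, 7.32, 8.94 and 11.2 CPM in lipid-treated libraries. It was lower with lipid in all 4 letters, with overlap through replicate D (log2 −0.47 ± 0.13, adjusted p = 0.00810, and 0.0637 without the letter in the model). With itaconate it was at 11.1, 8.01, 9.81 and 11.4 CPM without and 6.08, 4.77, 9.23 and 7.03 CPM with lipid (log2 −0.58 ± 0.13, adjusted p = 0.00238). *Slc25a25* (chr2:32414487-32451445) was at 65.5, 58.0, 52.7 and 53.4 CPM in untreated and 45.1, 41.2, 45.0 and 47.0 CPM in lipid-treated libraries. These groups did not overlap (log2 −0.36 ± 0.06, adjusted p = 2.03e-04), nor did those with itaconate, at 74.6, 65.3, 67.4 and 59.0 CPM without and 53.1, 50.1, 46.1 and 46.1 CPM with lipid (log2 −0.45 ± 0.06, adjusted p = 2.98e-05). Exons of *Slc25a25* overlap those of *Naif1* on the opposite strand over 379 bases, and the strand setting of the counting is not given in the sources used here.

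The most abundant carriers of the phosphorylation system fell by about the same amount. *Slc25a5* (chrX:36795651-36798807) was at 351.4, 351.8, 360.1 and 349.9 CPM in untreated, 269.3, 286.5, 295.4 and 295.1 CPM in lipid-treated, 361.3, 382.4, 367.0 and 362.7 CPM in itaconate-treated and 306.2, 325.4, 295.8 and 301.1 CPM in lipid + itaconate-treated libraries. No library with lipid reached the level of any library without it, and the fitted change was log2 −0.30 ± 0.04 without itaconate (adjusted p = 2.59e-05) and −0.26 ± 0.04 with it (adjusted p = 1.08e-04). In 15 of 16 libraries the expected count of *Slc25a5* was not whole, so that its reads were shared with other genes by the authors' estimation and its level is less certain than its count. *Slc25a3* was at 292 to 349 CPM in untreated and 222 to 271 CPM in lipid-treated libraries (log2 −0.31 ± 0.05, adjusted p = 8.55e-05), and it fell alike with itaconate present (log2 −0.31 ± 0.05, adjusted p = 7.95e-05). *Slc25a4*, with 17 to 40 counts per library, was at 0.985 to 1.40 CPM in untreated and 0.971 to 1.502 CPM in lipid-treated libraries and was not called.

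Iron and glycine carriers feed heme synthesis. The mitoferrin *Slc25a37* (chr14:69241848-69285112) was at 310.2, 386.9, 335.1 and 322.4 CPM in untreated and 245.6, 276.4, 251.5 and 246.0 CPM in lipid-treated libraries, without overlap (log2 −0.41 ± 0.09, adjusted p = 0.00120). With itaconate it was at 345.9, 338.0, 338.3 and 313.0 CPM without and 252.0, 258.7, 363.0 and 297.7 CPM with lipid. Replicate C of the lipid + itaconate group was the highest of those 8 libraries, and the difference was not called (log2 −0.19 ± 0.09, adjusted p = 0.0750). It was called in 3 of 22 alternative analyses, without that library (log2 −0.31, adjusted p = 0.00195), by DESeq2 (log2 −0.21, adjusted p = 0.0365) and with no filter (log2 −0.19, adjusted p = 0.00194). The expected count of *Slc25a37* was not whole in any of the 16 libraries, so that reads were shared with other genes here too. The other mitoferrin, *Slc25a28*, was not called in any comparison, but for lipid with itaconate present (log2 −0.21) 4 of 22 alternatives called it lower, which were DESeq2 (adjusted p = 0.0456) and the analyses without lipid replicate A (0.0397) or D (0.0350) or without replicate D of the lipid + itaconate group (log2 −0.30, adjusted p = 0.0141).

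*Slc25a38*, the glycine carrier needed for heme synthesis in erythroid cells, was at 22.7, 24.5, 26.8 and 24.5 CPM in untreated and 18.3, 19.6, 15.7 and 17.1 CPM in lipid-treated libraries (log2 −0.48 ± 0.08, adjusted p = 1.17e-04). With itaconate it was at 22.6, 26.8, 24.4 and 25.7 CPM without and 19.1, 18.1, 19.8 and 18.3 CPM with lipid (log2 −0.40 ± 0.08, adjusted p = 5.81e-04). Neither pair of groups overlapped. Beside these, the summed level of 6 erythroid markers was 33.3 to 37.3 CPM in untreated and 26.5 to 30.5 CPM in lipid-treated libraries. Nearly all of it was *Alas2*, a heme synthesis enzyme and the only one to pass the filter (means of 34.0 and 26.8 CPM). The globins were near 0 and not lower with lipid, with means of 0.598 and 0.733 CPM for *Hbb-bs*, 0.545 and 0.598 CPM for *Hba-a2* and 0.171 and 0.260 CPM for *Hba-a1*. The part of erythroid cells in these falls was not tested.

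Among carriers of cofactors, *Slc25a42*, which brings coenzyme A into mitochondria, fell. It was at 9.36, 10.7, 10.4 and 12.0 CPM in untreated and 7.26, 7.14, 5.91 and 6.30 CPM in lipid-treated libraries, without overlap (log2 −0.67 ± 0.16, adjusted p = 0.00274). With itaconate it was at 10.7, 9.56, 9.06 and 11.9 CPM without and 6.71, 5.15, 10.0 and 6.43 CPM with lipid, where replicate C was higher and the other letters lower (log2 −0.54 ± 0.16, adjusted p = 0.0101). No other tested carrier of coenzymes and vitamins, among them *Slc25a16*, *Slc25a17*, *Slc25a26*, *Slc25a32* and *Slc25a51*, was called with lipid alone. Exons of *Slc25a26* overlap over 144 bases with those of *Lrig1* on the opposite strand, whose mean count was 2564 against 182 for *Slc25a26*.

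*Slc25a48*, reported as a mitochondrial choline carrier, was at 1.78, 0.946, 1.79 and 1.21 CPM in untreated and 0.892, 0.526, 0.445 and 1.15 CPM in lipid-treated libraries. All 4 letters were lower with lipid, with overlap (log2 −0.93 ± 0.30, adjusted p = 0.0182). This call was lost without untreated replicate A (adjusted p = 0.0696), untreated replicate C (0.0820) or lipid replicate C (0.0721). With itaconate it was at 1.23, 1.70, 1.95 and 2.53 CPM without and 0.739, 0.615, 0.507 and 0.973 CPM with lipid, without overlap (log2 −1.39 ± 0.29, adjusted p = 0.00107). The 11 to 88 counts behind each value limit the precision, and *Slc25a48* passed the filter through the groups without lipid.

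*Slc25a39*, the second most abundant carrier per kilobase, was at 345.5, 321.5, 331.9 and 314.1 CPM in untreated, 320.2, 327.4, 306.0 and 310.4 CPM in itaconate-treated, 364.4, 344.5, 335.6 and 315.6 CPM in lipid-treated and 327.7, 334.4, 313.4 and 317.2 CPM in lipid + itaconate-treated libraries. The groups overlapped in every comparison and none was called.

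In the presence of itaconate, lipid raised 4 and lowered 12 of the 33 carriers (16 in all, 48.5%), beside 47.0% of all genes tested, with 23.5% higher and 23.5% lower. Without lipid + itaconate replicate B the number was 14, beside 5288 of the 11675 genes tested (against 5483 with that library). The carriers higher here were *Slc25a36*, *Slc25a30*, *Slc25a12* and *Slc25a45*. *Slc25a45* was called here (log2 0.31 ± 0.09, adjusted p = 0.00916) and not with lipid alone. The 12 lower were *Slc25a48*, *Slc25a24*, *Slc25a42*, *Slc25a25*, *Slc25a38*, *Slc25a3*, *Slc25a32*, *Slc25a16*, *Slc25a5*, *Slc25a13*, *Slc25a46* and *Slc25a22*. The smallest of these changes, *Slc25a46* (log2 −0.12 ± 0.04, adjusted p = 0.0323) and *Slc25a22* (log2 −0.11 ± 0.04, adjusted p = 0.0490), held in only 15 and 7 of 22 alternative analyses. *Slc25a46* was lost without itaconate replicate A or B (adjusted p = 0.0945 and 0.0803) and without lipid + itaconate replicate B or C (0.0838 and 0.0882). *Slc25a22* was lost on leaving out any library but untreated A, itaconate A, lipid A or lipid D, with adjusted p up to 0.128.

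Itaconate alone changed few carriers. Against untreated hepatocytes 3 of 33 were called (9.09%), beside 4.91% of all genes tested, with 2 carriers higher (1.96% of all genes) and 1 lower (2.95%). This comparison shares its untreated libraries with that of lipid against untreated. *Slc25a22*, which imports glutamate with a proton, fell from 65.2, 60.5, 73.1 and 74.8 CPM to 54.8, 50.96, 59.2 and 61.6 CPM. It was lower in all 4 letters, with overlap between letters (log2 −0.27 ± 0.04, adjusted p = 0.00159), and the call was lost without the letter in the model (adjusted p = 0.171).

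*Slc25a33* rose from 58.1, 55.1, 52.8 and 44.9 CPM to 65.4, 59.6, 62.1 and 63.4 CPM with itaconate, without overlap (log2 0.25 ± 0.06, adjusted p = 0.0184). The call was lost without untreated replicate D (adjusted p = 0.0796), itaconate replicate C (0.0828) or itaconate replicate D (0.0786), and without the letter in the model (0.184). *Slc25a25* had a higher level in all 4 letters, at log2 0.21 ± 0.06, and was just outside the threshold (adjusted p = 0.0506). It was called in 11 of 22 alternative analyses, among them DESeq2 (adjusted p = 0.0248), median-ratio scaling (0.0478) and both other filters, and without itaconate replicate D (0.0456), lipid replicate A (0.0393), B (0.0480) or D (0.0304), or lipid + itaconate replicate B (0.0406) or C (0.0321). The number of carriers called in this comparison was 4 without lipid + itaconate replicate B (beside 748 of all genes tested) and 5 without its replicate C (1051). It was 1 without untreated replicate D (283) or without itaconate replicate C (149).

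In lipid-treated hepatocytes, itaconate changed 1 of 33 carriers (3.03%), beside 2.58% of all genes tested, with none higher (1.32% of all genes) and 1 lower (1.26%). The carrier was *Slc25a22* again, which went from 61.0, 53.3, 62.0 and 60.1 CPM with lipid to 53.0, 46.5, 54.0 and 57.3 CPM with lipid + itaconate. It was lower in all 4 letters with overlap (log2 −0.17 ± 0.04, adjusted p = 0.0458). The call held in only 3 of 22 alternative analyses (edgeR with median-ratio scaling, DESeq2, and edgeR without lipid replicate D), and adjusted p was 0.110 without lipid + itaconate replicate B. *Slc25a24* had the largest fitted difference here (log2 −0.40) and was not called. It was called lower in 2 of 22 alternatives, without lipid + itaconate replicate C (log2 −0.60, adjusted p = 0.00408) and with no filter (log2 −0.40, adjusted p = 0.0154). With no filter *Slc25a37* was called higher (log2 0.20, adjusted p = 0.00979). *Slc25a33* was at 68.5, 70.8, 60.6 and 62.4 CPM with lipid + itaconate, inside or just above its range with lipid, and was not called. *Slc25a22* also fell with lipid alone (log2 −0.21 ± 0.04, adjusted p = 7.32e-04, and 0.0524 without the letter in the model), and so was lower under each treatment than in untreated libraries with the same letter.

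**Figure D4:**
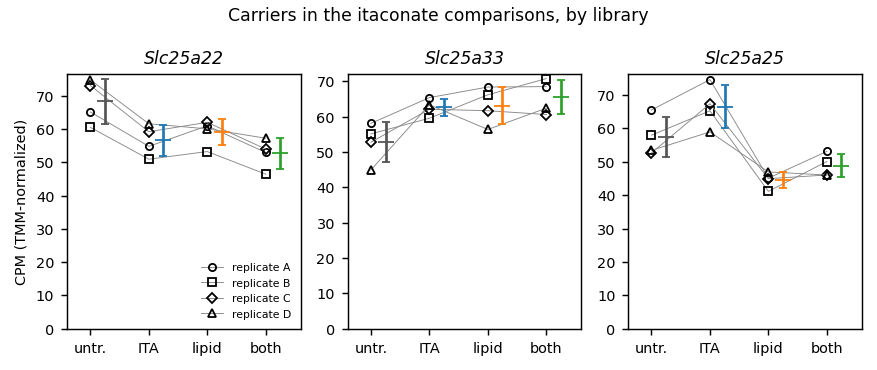
CPM by library (points, lines join a replicate letter) with the group mean ± SD (n = 4) for *Slc25a22* and *Slc25a33*, called in an itaconate comparison, and for *Slc25a25*, which just missed the threshold. In each letter *Slc25a22* is lower and *Slc25a33* and *Slc25a25* are higher with itaconate (ITA) than without (untr.).

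Whether itaconate changed the response to lipid was tested by the interaction term. With the filter on low values, no carrier was called by edgeR or by DESeq2, beside 0.00857% of all genes by edgeR. With no filter edgeR called *Slc25a47* (log2 −0.59, adjusted p = 4.77e-10), beside 231 of 25152 genes. At an unadjusted p under 0.05 there were 6 of 33 carriers in edgeR's fit of all 16 libraries, beside 8.60% of all genes. These were *Slc25a47* (log2 −0.59 ± 0.21, adjusted p = 0.449), *Slc25a23* (−0.29 ± 0.12, 0.535), *Slc25a44* (−0.26 ± 0.07, 0.296) and *Slc25a33* (−0.20 ± 0.08, 0.504), with negative terms, and *Slc25a45* (0.29 ± 0.12, 0.537) and *Slc25a26* (0.41 ± 0.17, 0.504), with positive ones. DESeq2 also gave 6. Without lipid + itaconate replicate B there were 8, and again no carrier was called. For DESeq2 and for the fit without that library, the share of all genes at this unadjusted p was not taken, so these counts have no background beside them. A rise with lipid that was called without itaconate and not with it, as for *Slc25a47*, *Slc25a44*, *Slc25a23* and *Slc25a33*, was therefore not shown to differ between these settings. The call of *Slc25a47* with no filter is the exception, found in 1 of 21 alternatives.

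Genes around the carriers were counted from lists drawn up for carriers outside the rule, outer membrane channels, import and regulation. With lists this short, the counts are to be read beside the 23.8% of all genes that were higher and the 23.7% that were lower with lipid. For lipid with itaconate present these shares were 23.5% and 23.5%. Of the 5 SLC25 genes left out by the rule, lipid raised *Slc25a1*, the citrate carrier (log2 0.11 ± 0.04, adjusted p = 0.0459), and *Slc25a11*, the oxoglutarate carrier (log2 0.27 ± 0.05, adjusted p = 2.29e-04), and lowered *Slc25a20*, the carnitine-acylcarnitine carrier (log2 −0.29 ± 0.08, adjusted p = 0.00798). Of 3 tested family members with other symbols, *Mtch1* (log2 −0.49 ± 0.05, adjusted p = 1.99e-06) and *Mtch2* (log2 −0.18 ± 0.04, adjusted p = 0.00174) fell. These are outer membrane proteins that insert other proteins. Of 5 tested carriers outside the family, none rose and 4 fell, which were the sideroflexins *Sfxn1*, *Sfxn2* and *Sfxn5* and the pyruvate carrier subunit *Mpc1*. The largest of these falls was that of *Sfxn5*, from 14.0 to 15.9 CPM in untreated to 8.05 to 10.7 CPM in lipid-treated libraries (log2 −0.68 ± 0.09, adjusted p = 1.85e-05).

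None of the 3 *Vdac* channels of the outer membrane was called with lipid. Of 13 genes for the import and insertion of carriers, 4 rose with lipid (*Timm29*, *Timm10*, *Tomm20* and *Tomm70a*, by log2 0.12 to 0.19) and none fell, beside 23.8% higher over all genes. *Tomm70a* is the receptor for newly made carriers, and *Timm10* and *Timm29* belong to the machinery that hands them to the inner membrane and inserts them. Of 7 regulators of mitochondrial biogenesis, *Esrra* rose (log2 0.27 ± 0.06, adjusted p = 0.00193) and *Pprc1* fell (log2 −0.13 ± 0.05, adjusted p = 0.0397). With itaconate present, lipid raised 2 and lowered 3 of the 5 carriers left out, lowered 2 of 3 with other symbols and 3 of 5 outside the family, and raised 2 and lowered 0 of 13 import genes, with the same counts without lipid + itaconate replicate B. Of the 7 regulators it raised 1 and lowered 2, against 0 and 3 without that library.

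Itaconate alone raised 1 of the 7 regulators, beside 1.96% of all genes tested higher and 2.95% lower. This was *Ppargc1a*, a coactivator of mitochondrial and gluconeogenic genes, which went from 2.73 to 3.51 CPM to 4.69 to 5.53 CPM without overlap (log2 0.69 ± 0.14, adjusted p = 0.0121). Itaconate also lowered *Slc25a1* (log2 −0.19 ± 0.04, adjusted p = 0.0207) and *Tomm40*, the pore of the outer membrane translocase (log2 −0.17 ± 0.04, adjusted p = 0.0262). Over all genes, calls in this comparison went from 573 to 23 without the letter in the model, and no value of these genes in that fit is given. With itaconate present, lipid lowered *Ppargc1a* (log2 −0.63 ± 0.14, adjusted p = 0.00177), to 2.84 to 3.67 CPM. In lipid-treated hepatocytes, where itaconate raised 1.32% and lowered 1.26% of all genes tested, it lowered *Slc25a15*, the ornithine carrier of the urea cycle (log2 −0.24 ± 0.06, adjusted p = 0.0489). No other gene of these lists was called. Without lipid + itaconate replicate B none of them was.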

How the data were processed

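Bulk RNA-seq of 16 libraries of primary mouse hepatocytes (4 treatments, replicate letters A to D) was used. Per the labels, reads were processed with bcl2fastq 2.20, Cutadapt 1.18, STAR 2.7.0f on mm10, Picard 2.18.26 and RSEM 1.3.1, from a stranded mRNA library, and the authors deposited RSEM's expected counts for each gene, with no scaling. RSEM splits a read that maps to more than 1 gene, so that values can be fractional. All 55450 identifiers were found in GENCODE mouse release 21, which gave positions and exon lengths; the release the authors used is not given in the sources used here.

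Expected counts were rounded to whole numbers for edgeR 4.0.16 (R 4.3.3, limma 3.58.1). Genes averaging 1 CPM or more were kept (11675), and edgeR's two-sided quasi-likelihood test was fitted to all 16 libraries after TMM scaling, with treatment and replicate letter as terms, the interaction included, and Benjamini-Hochberg adjustment over all genes tested. CPM values in the text are TMM-scaled. The letters come from the labels and the study's methods remove a batch. Deviations from the group means were correlated for the 24 same-letter pairs at 0.143 to 0.468 (median 0.263) and for the 72 other pairs at a median of −0.114, so the letters were kept as a block. No pair of libraries was a duplicate. Scripts were tested on simulated data.

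Alternatives were no replicate block, RLE scaling, other filters, only the 8 libraries compared, DESeq2 1.42.0 and each library left out. Values in every library are given for carriers called in an itaconate comparison, the 6 called with lipid that rose most, the 6 that fell most, and the 3 most abundant per kilobase. *Slc25a33*, *Slc25a22* and *Slc25a5* enter by more than 1 comparison or rank. The carriers, roles and gene lists were chosen with earlier results of these data known. Promoter sequences are from RefSeq (GRCm38.p6), cut where a GENCODE exon of the gene begins. Values of 1 carrier are not reported here, and it is included in the counts.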

Additional observations from a re-analysis of the deposited data

Results flagged for a closer look

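A sample far from the others was looked for in 68 sets of 4 libraries (17 carriers in 4 groups), where chance would single out about 5% of sets, and 2 were found. *Slc25a23* in lipid + itaconate replicate B was at 36.1 CPM, below the 40.2 to 40.9 CPM of the other 3 libraries. *Slc25a24* in untreated replicate D was at 16.0 CPM, above the 11.1 CPM of the other 3. The itaconate difference of *Slc25a44* went opposite ways without and with lipid in every letter, higher in 4 of 4 letters without lipid and lower in 4 of 4 with it. The interaction was log2 −0.26 (edgeR, unadjusted p = 0.00246, adjusted p = 0.296), so this did not pass the correction.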

How the results depend on the processing

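Of 38 calls of carriers, 28 held in every one of the 22 alternative analyses (14 of 18 for lipid against untreated, 14 of 16 for lipid with itaconate present, 0 of 3 and 0 of 1 for itaconate without and with lipid), and none changed direction. In 17 further cases a carrier that was not called in a comparison was called in 1 to 11 of the alternatives, such as *Slc25a32* and *Slc25a40* for lipid against untreated in 2 each. The number of carriers called with lipid stayed within 1.5 times the main count in every alternative. Without the replicate block it was 15 (against 18) without itaconate, beside 4149 of all genes tested (against 5546). With itaconate it was 14 (against 16), beside 3990 (against 5483). For itaconate against untreated (3 carriers) the count was 0 with no replicate block, 5 with no filter, 9 when the model held only the 8 libraries compared, and 1 to 5 on leaving out a library. For lipid + itaconate against lipid (1 carrier) it was 0 with no replicate block, 0 with the filterByExpr filter, 0 with only the 8 libraries and 3 with no filter, with 0 to 1 on leaving out a library. For the interaction (0 carriers) it was 1 with no filter, *Slc25a47*. The cause of these shifts was not tested. Over all genes, itaconate against untreated gave 573 calls, 23 without the block, 1091 with no filter, 1859 with the 8 libraries and 149 to 1051 on leaving out a library. Lipid + itaconate against lipid gave 301, and then 9, 725, 14 and 59 to 891, with 512 by DESeq2. The interaction gave 1, and 36 by DESeq2, 231 with no filter, and 0 without the block. Counts of 11 to 88 per library limit *Slc25a36*, *Slc25a48* and *Slc25a4*. The counts of gene lists without lipid + itaconate replicate B were added after seeing the data.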
